A study of Mus musculus with 6 samples.

Results

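Stop codon intervals were stretches of the genome in which sequencing peaks of RNA bound to Ago2 covered both coding sequence and 3'UTR of the same messenger RNA. They were found by merging the overlapping or touching peaks of 5 libraries, and by keeping each merged interval that overlapped coding sequence and 3'UTR of 1 protein-coding transcript (GENCODE M21, with the UTR starting after the stop codon) and no 5'UTR of any transcript. Of 41363 merged intervals, 6629 (16.0%) met this rule, in 6299 genes. The other large classes of the merge were 21866 intervals over coding sequence only, 3875 over 3'UTR only and 4065 that touched a 5'UTR.

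The libraries came from primary mouse satellite cells (MSC), the muscle stem cells, which were kept in low-serum differentiation medium (DM) for 30 h, transfected with 10 nM of either a miR-222 duplex or siGFP, an siRNA against a fluorescent protein that served as control, and lysed after 16 h more in DM. RISC was then immunoprecipitated with an antibody to Ago2, so that every library shared the cell type, the medium and the IP, and differed in the duplex. Experiment 1 held control-IP 1, control-IP 2 and miR-222-IP 1, and experiment 2 held control-IP 3, control-IP 4 and miR-222-IP 2. The title of miR-222-IP 2 reads miR22 where its condition label reads miR222, and the condition label was followed. The labels do not say whether the control-IPs of 1 experiment were separate cultures, so the spread between them may be technical. The purpose of the design was to find RNAs that joined RISC in larger amounts when miR-222 was overexpressed.

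Ago2 holds a miRNA and pairs its seed, bases 2 to 8, with a matching stretch of a target mRNA, most often in the 3'UTR. Sites in the coding sequence also exist, but elongating ribosomes pass over them, whereas the 3'UTR begins where ribosomes stop. In muscle, miR-221 and miR-222 are present in dividing myoblasts and decline as the cells differentiate, while miR-1, miR-206 and miR-133 rise. The cDNA was amplified and then fragmented, and the labels name no crosslinking or RNase step, so that a peak marked a stretch of recovered RNA and not the footprint of an Ago2 molecule.

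The sequences on which the seed results turn are those of miR-222 and miR-221, which share a seed, and of the 3 families used beside it. They are given as RefSeq lists them, 5′ to 3′, with the seed in capitals:
miR-222-3p: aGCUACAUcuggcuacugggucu
miR-221-3p: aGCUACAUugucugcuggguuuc
let-7a-5p: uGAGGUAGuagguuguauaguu
miR-206-3p: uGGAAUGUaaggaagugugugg
miR-133b-3p: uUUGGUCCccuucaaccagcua
The 7-mer in mRNA complementary to the shared seed of miR-222 and miR-221 is ATGTAGC. It contains ATG, the codon of methionine, followed directly by TAG, 1 of the 3 stop codons, so that a coding sequence that ends in methionine and TAG and is followed by C carries a full seed match over its stop codon.

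Library facts bear on all that follows. The libraries had between 3619 and 37762 peaks, each with a −log10 p (the strength macs2 gave the peak against its local background) of at least 20, and with no read counts to set beside them, so that depth is unknown. Control-IP 3 stood apart, with a median width of 21736 bp for its stop codon peaks against 525 to 645 bp in the other control-IPs, and peaks on 10 chromosomes where the others had them on 21. It was left out of the merge, and 5 libraries remained. MiR-222-IP 2 had the most peaks, and its strengths exceeded those of the others by a scaling factor of 1.49 against 0.706 to 1.06.

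The peaks went against the labelled cell type in part. Of 10 myocyte markers (Myog, Mymk, Ckm, Myh3, Acta1, Actc1, Des, Tnnt3, Mylpf and Chrna1), 8 to 10 had an exonic peak in each of the 5 libraries, but their summed −log10 p was 379 and 329 in control-IP 1 and 2, 531 in miR-222-IP 1, 332 in control-IP 4 and 1361 in miR-222-IP 2. Myog, the transcription factor that marks committed myocytes, had no listed peak in any of these libraries but miR-222-IP 2. All 4 macrophage markers (Adgre1, Cd68, Ptprc and Csf1r) had peaks, with summed values of 513 to 655 and with Ptprc at 0 in control-IP 1. A list of 9 microglial genes, drawn up after these values were seen (P2ry12, Tmem119, Cx3cr1, Trem2, Tyrobp, C1qa, C1qb, C1qc and Siglech), had a peak for every gene in every one of the 5 libraries, and its sum lay between 1158 and 1323. On lists drawn up in the same way, 6 myelin genes summed to 287 to 584, with Mog and Mag at 0 in all 5, and 12 muscle genes summed to 302, 278 and 274 in control-IP 1, 2 and 4 and to 454 and 1461 in miR-222-IP 1 and 2. The other lists were low: the sum over 6 fibroblast markers was 0 to 73.2, with Dcn, Lum and Col1a1 at 0 in all 5, that over 4 endothelial markers 26.1 to 106 with Kdr and Tek at 0, that over 3 Schwann cell markers 46.0 to 247 with Sox10 at 0, and no library had a peak over the markers of adipocytes (Adipoq, Plin1, Fabp4) or of quiescent satellite cells (Pax7, Calcr, Myf5). The part that the makeup of the cultures had in any result was not tested, and in bulk samples fewer cells of a type and less RNA per cell cannot be told apart.

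The stop codon intervals themselves showed the same division. Ctss, which encodes the lysosomal protease cathepsin S of macrophages and microglia, carried the strongest stop codon interval of all, with −log10 p of 327, 318 and 330 in control-IP 1, 2 and 4 and of 326 and 318 in miR-222-IP 1 and 2. These 5 values lay close together and the groups overlapped. Its stop codon lies in this window of GRCm38, shown with the stop codon in capitals because it is the anchor of the strongest interval.
Ctss, chr3:95556170-95556199, plus strand: ttacccagaaatcTAAaccatttcttcttt
Its interval (chr3:95555967-95556480) held 97 coding bp and all 218 bp of the 3'UTR. Fcer1g, the signalling chain of Fc receptors, had 245, 256 and 255 in the control-IPs and 255 and 242 in the miR-222-IPs, and Ly86, a surface partner of a Toll-like receptor, had 268, 266 and 261 against 266 and 230. Adgre1, the macrophage antigen F4/80, had 219, 197 and 236 against 235 and 226.

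Myod1, the myogenic determination factor, had 27.4, 22.3 and 26.8 in control-IP 1, 2 and 4, 29.2 in miR-222-IP 1 and 174 in miR-222-IP 2. The last library stood far above the other 4, which were near the lower limit of the lists. Des, the muscle intermediate filament desmin, had 53.4, 37.7 and 36.6 in the control-IPs, 75.8 in miR-222-IP 1 and 169 in miR-222-IP 2. Actc1, cardiac alpha actin, which embryonic muscle also makes, had 29.8, 39.6 and 34.2, then 36.9 and 148. Myod1, Des and Actc1 were thus highest in miR-222-IP 2, and Ctss, Fcer1g, Ly86 and Adgre1 were strong in all 5 libraries. Not every member followed. Tpm3, of the sarcomere list, had 189 in control-IP 2 against 158 in miR-222-IP 2. Mef2a, of the myogenic regulators, had 76.8 in miR-222-IP 1 against 66.4 in miR-222-IP 2. The macrophage marker Cd68 had 58.9 in control-IP 1 against 99.4 to 123 elsewhere.

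**Figure D1:**
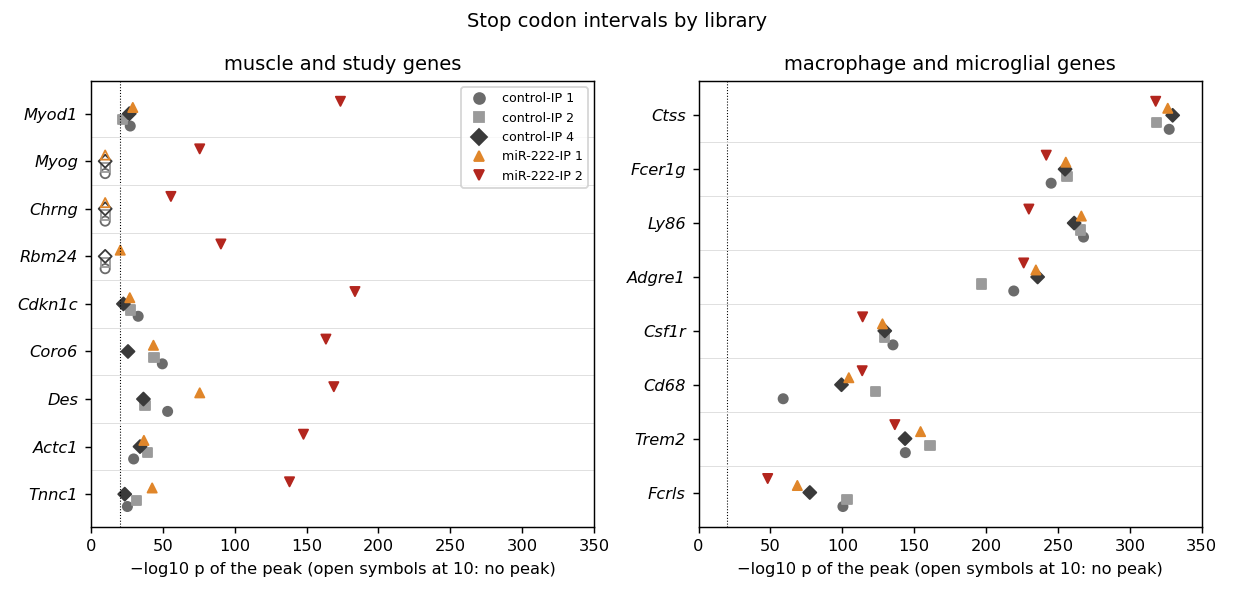
Strength (−log10 p, linear axis) of 17 stop codon intervals in each of the 5 libraries; open symbols at 10 mark a library with no listed peak, and the dotted line is the lower limit of 20. MiR-222-IP 2 lies to the right of the other libraries for all 9 muscle and study genes shown, Myod1 at 174 against 22.3 to 29.2, whereas Ctss lies between 318 and 330 in all of them. The genes were chosen with values known, and some that are not shown went the other way. Naca had 50.5 in miR-222-IP 1 against 44.2 in miR-222-IP 2, and Tpm3 had 189 in control-IP 2 against 158 in miR-222-IP 2.

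The stop codon intervals were broad and lay mostly on the untranslated side. Their median width was 745 bp (quartiles 490 and 1101), close to the 759 bp of 3'UTR-only intervals and wider than the 333 bp of coding-only ones. A median of 141 bp was coding and 438 bp was 3'UTR, so that coding bases made up a median of 24.6%, and 5051 intervals (76.2%) held more 3'UTR than coding bases. The downstream end often ran out the transcript: 2358 (35.6%) reached within 25 bp of the annotated transcript end, 1425 (21.5%) covered the whole 3'UTR, and the median share of the 3'UTR covered was 83.6%. Intervals of marginal overlap were few, since 363 held under 25 coding bp and 167 under 25 bp of 3'UTR.

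The stop codon lay in the last exon in 6479 intervals (97.7%), and that exon held a median of 140 coding bases up to the stop. The upstream edge lay within 25 bp of the start of that exon in 1232 intervals (18.6%), upstream of it in 4215 (63.6%) and inside it in 1182 (17.8%), while 5956 intervals (89.8%) touched bases of 1 exon of the chosen transcript alone, so that an edge upstream of the exon lay mostly in an intron. Every stop codon interval had at least 1 library in which a single peak covered both sides, so that none was made only by joining a coding peak of 1 library to a 3'UTR peak of another. Among the 1891 intervals with exactly 1 peak in each of the 5 libraries, the median SD of the edge position over libraries was 28.3 bp upstream and 26.8 bp downstream.

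The stop codons under the intervals were TGA in 51.8%, TAA in 25.5% and TAG in 22.6%, against 49.4%, 27.8% and 22.8% over 21673 coding genes (1 transcript per gene). Because the libraries carried no strand, an interval could not be assigned to 1 gene where genes overlap, and 107 intervals (1.61%) qualified through transcripts of more than 1 gene. Gadl1 was such an uncertain case in another way, since its 2 intervals belonged to different transcripts, one with −log10 p of 228 to 284 in all 5 libraries and the other with 28.8 in control-IP 2 alone.

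Peak coverage rose at the stop codon in every library. Over 3571 genes with an exonic interval and at least 1000 bases of both coding sequence and 3'UTR, the share with a peak 500 bases upstream of the stop codon was 7.48%, 14.3% and 13.3% in control-IP 1, 2 and 4 and 15.8% and 31.4% in miR-222-IP 1 and 2. At the stop codon these shares were 14.0%, 22.1%, 23.4%, 26.8% and 47.0%, in the same order. The libraries differed in their level but rose alike, by 10.2 percentage points on average, in 5 of 5 libraries (exact sign-flip permutation test over libraries, two-sided, p = 0.0625, the smallest that 5 libraries allow). From the stop codon to 500 bases downstream the share moved by less, with 15.5%, 20.5%, 24.7%, 30.5% and 49.0%, and control-IP 2 was the 1 library with a lower share there than at the stop codon. That difference, stop codon minus downstream, averaged −1.39 points (exact sign-flip permutation test, p = 0.25). The rise began near 150 bases before the stop codon, about the median coding length of the exon that holds it.

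**Figure D2:**
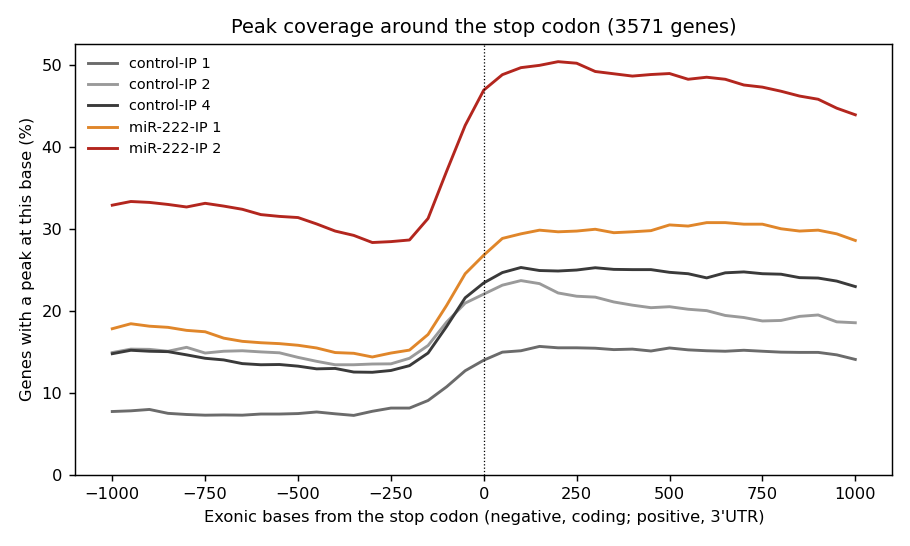
Share of 3571 genes (vertical axis, percent) with a peak over each base, by distance in exonic bases from the stop codon, 1 line for each of the 5 libraries. Every line is low in the coding sequence, climbs between about −150 and 0 and stays high in the 3'UTR, reaching 14.0% to 47.0% at the stop codon from 7.48% to 31.4% at −500.

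Stop codon intervals had peaks in more of the libraries, and stronger ones, than intervals on either side alone. Control-IP 1 had a peak in 39.1% of stop codon intervals, 29.3% of 3'UTR-only and 17.9% of coding-only intervals. Control-IP 2 had 65.9%, 52.5% and 38.2%, and control-IP 4 had 57.8%, 41.7% and 37.5%. MiR-222-IP 1 had 64.4%, 52.5% and 45.8%, and miR-222-IP 2 had 95.2%, 85.7% and 92.8%. In each library the stop codon class was the most often found, by 12.1 percentage points over 3'UTR-only and 18.1 over coding-only intervals on average. This is a description without a test, since the intervals were formed by merging the peaks of the same libraries, and a merge of more peaks is wider and more likely to span both sides. Among intervals of 490 to 1101 bp, the differences were 12.2 and 10.3 points, in the same direction.

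The median −log10 p of the called intervals was 39.8 for stop codon, 34.1 for 3'UTR-only and 30.8 for coding-only intervals in control-IP 1, and 59.9, 45.3 and 35.9 in miR-222-IP 2. The other 3 libraries lay between, and the order of the classes was the same in all 5. On average the stop codon class exceeded 3'UTR-only by 8.11 and coding-only by 14.1 units of −log10 p. Among intervals of 490 to 1101 bp these differences were 8.05 and 9.49 units. This too is a description without a test, since the same peaks formed the classes and a wider interval can take its highest value from more peaks. A peak in all 5 libraries was present for 2216 stop codon intervals (33.4%), 19.9% of 3'UTR-only and 13.1% of coding-only intervals. At the other end, 1505 stop codon intervals (22.7%) had a peak in 1 library, against 37% of 3'UTR-only and 44.2% of coding-only intervals. That library was miR-222-IP 2 for 1229 of them, control-IP 2 for 239, miR-222-IP 1 for 24, control-IP 4 for 7 and control-IP 1 for 6. The 1229 were 18.5% of stop codon intervals, below the 31.3% of all merged intervals that had a peak in miR-222-IP 2 alone. The intervals found in all 5 libraries had a median width of 931 bp and those found in 1 had 536 bp.

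**Figure D3:**
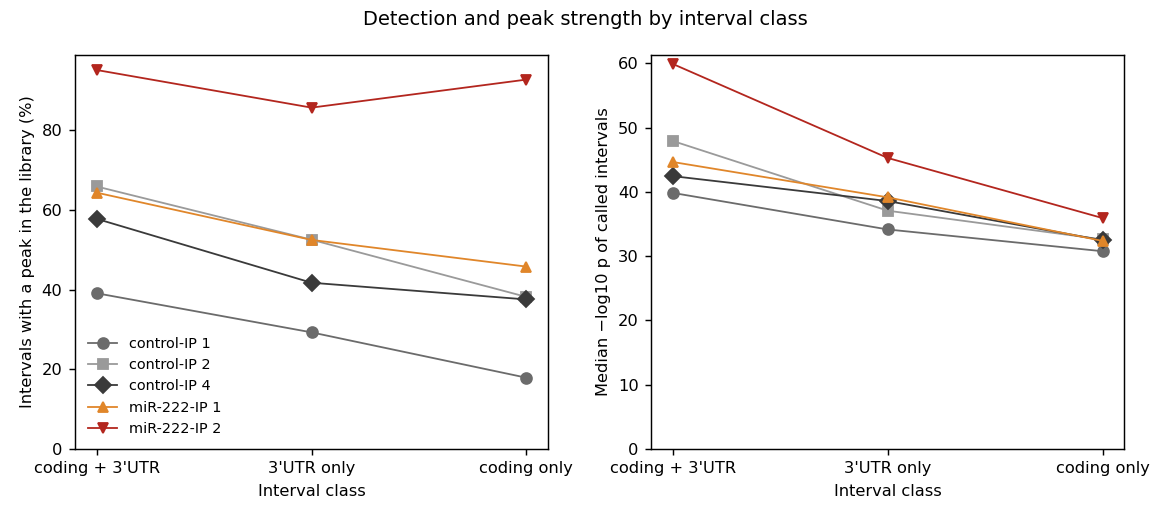
Left, share of intervals with a peak in each library (percent); right, median −log10 p of the intervals called, for intervals over coding sequence and 3'UTR, over 3'UTR only and over coding sequence only, with 1 symbol per library joined by a line. Stop codon intervals are highest in both panels in all 5 libraries, and in the left panel miR-222-IP 2 lies above the rest at 85.7% to 95.2%.

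Within genes, the stop codon interval was often the strongest. Among genes with at least 2 called exonic intervals, 1 of them over the stop codon, the latter was the strongest in 57.4% to 61.0% over the 5 libraries. For 3'UTR-only intervals the share, over genes with such an interval, was 49.9% to 58.5%, and for coding-only intervals 35.8% to 42.5%. These shares rest on different sets of genes and on intervals of different widths, and no expected share was computed. Of 10289 coding genes with an exonic interval, 6299 (61.2%) had a stop codon interval, and for 1627 of these (25.8%) it was the only exonic interval.

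Gene families differed in how often they had a stop codon interval, as the lists show beside the 61.2% of all genes with an exonic interval. Of subunits of oxidative phosphorylation, the mitochondrial machinery of ATP synthesis, 33 of 34 genes with an interval had one over the stop codon (97.1%), and of proteasome subunits 29 of 31 (93.5%). Glycolytic enzymes had 15 of 17 (88.2%), cytosolic ribosomal proteins 43 of 59 (72.9%), sarcomere genes 21 of 31 (67.7%), splicing regulators 13 of 23 (56.5%) and genes of RISC and miRNA processing 5 of 13 (38.5%). The members of these lists differ in median 3'UTR length. It was 94.5 bp for ribosomal proteins, 213 bp for proteasome, 236 bp for oxidative phosphorylation and 379 bp for sarcomere members. For glycolytic enzymes it was 486 bp, for splicing regulators 1228 bp and for RISC members 3851 bp. Ribosomal proteins, with the shortest, had the 72.9% given above, and the part of 3'UTR length in these shares was not tested. Replication-dependent histones, whose mRNAs end in a stem-loop and mostly lack a poly(A) tail, had an interval in 11 genes and none that met the rule. The rule leaves out any interval that touches a 5'UTR, and the part of this in the count was not tested. Extracellular matrix genes had 9 of 12 (75%), genes of translation elongation and termination 11 of 17 (64.7%), selenoproteins, whose mRNAs reread UGA as selenocysteine, 9 of 16 (56.2%), and myogenic regulators 6 of 11 (54.5%). Their median 3'UTR lengths were 1378, 1261, 621 and 988 bp, in the same order.

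The strongest stop codon intervals belonged to Ctss, Rpl41, Lars2, Rpl29, Gadl1, Ly86, Rpl14, Clta, Pon2 and Fcer1g, by mean −log10 p over the 5 libraries (324 for Ctss to 251 for Fcer1g). Rpl41, Rpl29 and Rpl14 encode proteins of the large ribosomal subunit, Lars2 the mitochondrial leucyl-tRNA synthetase, Clta a clathrin light chain and Pon2 a paraoxonase. Rpl41 had 327, 326 and 319 in control-IP 1, 2 and 4 and 322 and 282 in the miR-222-IPs. Reads of ribosomal protein genes can be shared with processed pseudogenes, so their values are uncertain. These strongest values lay near the highest of each library, which was 318 to 330 in all 5 although the scaling factors ran from 0.706 to 1.49, so that the scale of −log10 p may not separate libraries there. The median SD over libraries of these 10 intervals was 6.09% of the mean, whereas the weakest, middle and strongest terciles of the 2216 intervals with 5 peaks had 45.8%, 44.1% and 28.1%.

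The share of a library's own peaks that lay over a stop codon did not separate the groups. It was 20.6%, 17.5% and 19.0% in control-IP 1, 2 and 4 (2184, 3494 and 3404 peaks) and 18.4% and 16.5% in miR-222-IP 1 and 2 (3887 and 6236 peaks). MiR-222-IP 1 lay between the control-IPs of its experiment, and miR-222-IP 2 lay below control-IP 4. The difference averaged −1.56 percentage points over the experiments (−0.61 in experiment 1 and −2.51 in experiment 2; exact permutation test within experiments, two-sided, p = 0.5). With 6 arrangements this exact permutation test cannot go below p = 0.167. When every library was reduced to the same number of its strongest peaks, the difference turned to 3.92 points (exact permutation test, p = 0.333).

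The comparison of strengths between miR-222-IP and control-IP rested on −log10 p scaled by the median of ratios, expressed as a log2 ratio. It compares peak strengths, not RNA amounts. Of the 2216 stop codon intervals with 5 peaks, 395 (17.8%) were higher in both miR-222-IPs than in every control-IP of the same experiment, against a background of 17.4% of all 7935 intervals with 5 peaks, and 365 (16.5%) were lower, against 18.4%. Both shares were near the background under this scaling. The median log2 ratio of the stop codon intervals was −0.12 in experiment 1 and 0.15 in experiment 2, beside −0.04 and 0.01 over all intervals. The split itself depended on the scaling: with none, 964 (43.5%) were higher and 59 (2.66%) lower, against 50.1% and 2.75% of all intervals. When the libraries were scaled to their total −log10 p, 50 (2.26%) were higher and 889 (40.1%) lower, against 1.84% and 35.2%, so that no direction is given for the stop codon intervals as a whole.

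The direction also differed with strength. In the weakest tercile (mean −log10 p of 22.9 to 60.5) 169 of 739 were higher and 49 lower, in the middle tercile 163 of 738 were higher and 74 lower, and in the strongest tercile (91.3 to 324) 63 of 739 were higher and 242 lower. Without scaling the same terciles had 353, 337 and 274 higher and 1, 13 and 45 lower. Over all 7935 intervals with 5 peaks, 17.4% were higher and 18.4% lower after scaling, but these were not divided by strength. Whether the difference with strength is particular to stop codon intervals is therefore not known. Ctss is an example of a strong interval with nearly equal deposited values, to which the scaling gave a log2 ratio of −0.36 in experiment 1 and −0.64 in experiment 2 from values of 318 to 330. Experiment 2 sets 1 library against 1. In it the 12 muscle genes summed to 1461 in miR-222-IP 2 against 274 in control-IP 4, and the part of this in the ratios was not tested.

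**Figure D4:**
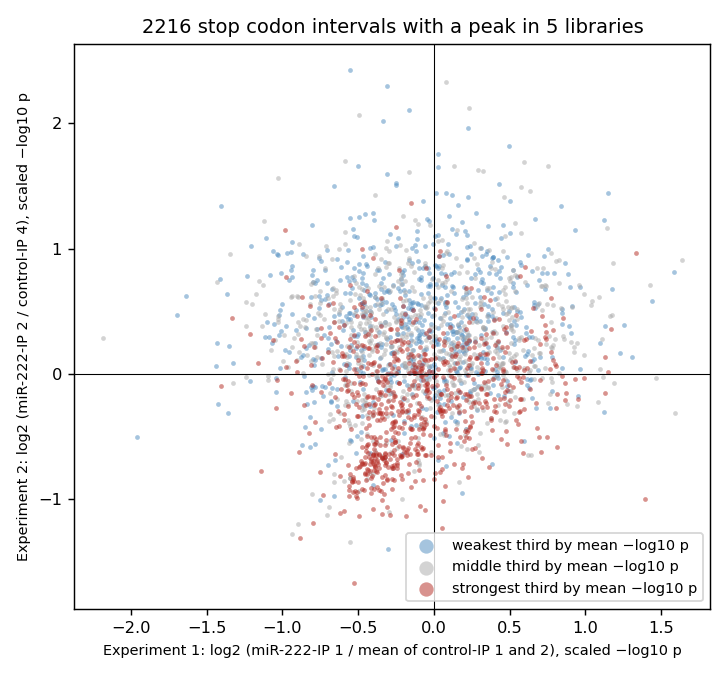
Log2 ratio of scaled −log10 p, miR-222-IP over control-IP, in experiment 1 (horizontal) and experiment 2 (vertical), for 2216 stop codon intervals with a peak in all 5 libraries, coloured by tercile of mean −log10 p. The strongest tercile is densest at lower left, and 242 of its 739 intervals were lower in both experiments, while the medians of the weakest and middle terciles in experiment 2 were 0.39 and 0.25. Intervals of the other classes were not divided by strength.

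Timm17a and Sptbn1 were among the intervals with the largest mean ratio of those higher in both experiments. Timm17a, a subunit of the mitochondrial import channel, had 34.7 and 24.1 in control-IP 1 and 2 against 122 in miR-222-IP 1, and 62.6 in control-IP 4 against 177 in miR-222-IP 2, with a mean log2 ratio of 1.27 (exact permutation test within experiments, p = 0.167, the smallest possible). Sptbn1, a spectrin chain, had 65.8 and 32.5 against 113, and 23.7 against 113, with a mean of 1.21.

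The lowest mean ratios were in Dgkd, Fcrls and Igf2. Dgkd, a diacylglycerol kinase, had 24.5 in control-IP 1 but 149 in control-IP 2, against 25.5 in miR-222-IP 1, and 30.5 in control-IP 4 against 32.5 in miR-222-IP 2, with a mean of −1.23. Control-IP 2 stood far above the other 4 libraries. Fcrls, a gene named among microglial markers, had 100 and 103 against 68.7, and 77.4 against 48.1, with a mean of −1.11. Igf2, a growth factor that rises in differentiating myoblasts, had 127 and 137 against 118, and 138 against 65.5, with a mean of −1.10. The exact permutation p of these 5 intervals was 0.167 or 0.333.

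The lists moved with the scaling as well. Of 36 ribosomal protein intervals with 5 peaks, none was higher and 19 were lower, but 5 were higher and 2 lower without scaling, 0 higher and 29 lower with scaling to the total, and their mean −log10 p reached 255, in the range where the strongest intervals lie. Oxidative phosphorylation had 3 higher and 5 lower of 29, which became 12 and 0 without scaling and 0 and 12 with scaling to the total, and proteasome had 3 higher and 0 lower of 17, which became 4 and 0 without scaling and 0 and 6 with scaling to the total. Psma5, a proteasome core subunit, was higher in both experiments, with 70.7 and 42.5 against 120 and 98.2 against 213. The other lists held few intervals with 5 peaks, to be read beside the 17.4% higher and 18.4% lower of all intervals. Glycolytic enzymes had 1 higher and 2 lower of 10, selenoproteins 0 and 2 of 8, translation elongation and termination 1 and 2 of 5, sarcomere genes 1 and 0 of 4, splicing regulators 1 and 1 of 4, extracellular matrix 0 and 2 of 2 and myogenic regulators 0 and 0 of 2. Without scaling these counts were 4 and 0 for glycolytic enzymes, 5 and 1 for selenoproteins, 2 and 0 for translation elongation and termination, 2 and 0 for sarcomere genes, 1 and 0 for splicing regulators, 0 and 1 for extracellular matrix and 2 and 0 for myogenic regulators. Only 4 sarcomere intervals had a peak in every library, and Tnnc1, slow troponin C, was the 1 that was higher in both after scaling, with 25.5 and 31.9 against 42.7 and 23.6 against 138.

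A peak in both miR-222-IPs and in none of the 3 control-IPs used was found for 269 stop codon intervals (4.06%), against a background of 6.37% of all merged intervals. The opposite, a peak in all 3 control-IPs and in no miR-222-IP, was found for none of them, against a background of 0.00967%. The miR-222-IPs had more peaks than the control-IPs, and in a merge of equal numbers of peaks from each library the first class held 51 stop codon intervals (1.27%), against 1.33% of all intervals. The share lay below that of all intervals with all peaks and near it with equal numbers. Ranked by the lower of the 2 values, the first of the 269 was in Asf1a, a histone chaperone, with 51.1 in miR-222-IP 1 and 52.0 in miR-222-IP 2. Clpx, a mitochondrial chaperone, had 45.5 and 69.9, and D6Wsu163e had 57.0 and 45.4. Of the others among the first 10, S100a11, a calcium-binding protein, had 42.0 and 178, and Clk4, a kinase of splicing factors, had 43.1 and 54.3, and Agtpbp1, Lnx2, Tsr3, Ankrd13c and Ggnbp2 had lower values of 40.7 to 44.2. None of these 10 held an ATGTAGC 7-mer.

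The 7-mer of miR-222 and miR-221 was present in 305 stop codon intervals (4.6%), against 6.68% of 3'UTR-only and 1.52% of coding-only intervals, which are of different widths. Per kb of interval, on the strand of the transcript and including bases outside exons, this was 0.0566, 0.0823 and 0.0399. The 7-mer of let-7 was in 6.56% of stop codon intervals, that of miR-1 and miR-206 in 6.40% and that of miR-133 in 5.33%. Of the 323 sites of the miR-222 seed, 250 lay in the 3'UTR, 29 in coding sequence, 12 over the stop codon and 32 outside the exons of the chosen transcript. Their density was 0.0661 per kb of 3'UTR and 0.0222 per kb of coding sequence. For let-7 the density was higher on the coding side, 0.110 against 0.0708, and for miR-133 it was 0.0828 against 0.0632, whereas that of miR-1 and miR-206 had 0.0514 against 0.0909.

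The 29 coding sites fell 25 in frame 1, 4 in frame 2 and 0 in frame 0, counted from the first base of the 7-mer. In frame 0 its TAG is a stop codon. In that frame the letters can stand at the end of a coding sequence, where 12 intervals had them. The 7-mers along the intervals, in bins of 100 bases, numbered 1.80 per 1000 covering intervals in the last 100 coding bases, 4.27 in the first 100 bases of the 3'UTR and 8.78 between 400 and 500 bases. The counts behind these were 8, 25 and 26 sites.

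**Figure D5:**
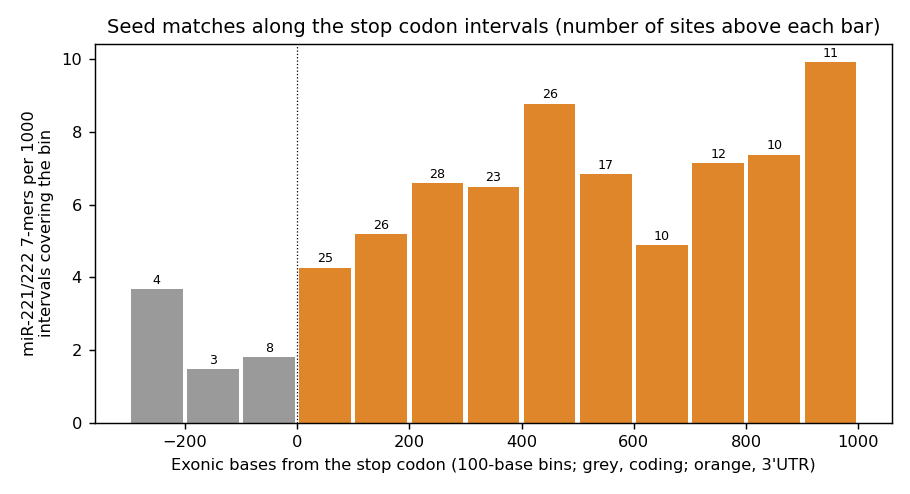
Number of ATGTAGC 7-mers per 1000 stop codon intervals that cover each bin of 100 exonic bases, with the number of sites above each bar; grey bars are coding and orange bars 3'UTR, and the 12 sites over the stop codon are not drawn. The coding bars stand at 1.48 to 3.68 and the 3'UTR bars at 4.27 to 9.93.

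All 12 sites over the stop codon read ATGTAGC with the last methionine codon and the TAG stop in frame, which is 12 of 1500 intervals with a TAG stop codon (0.80%), beside 28 of 4937 coding genes with TAG (0.567%). They are printed because the stop codon itself forms the seed match, in capitals, in GRCm38:
Scamp1, chr13:94203986-94204015, minus strand: agggtaaccagATGTAGCgagcctggaagc
Klf2, chr8:72320903-72320932, plus strand: tgaagcgacacATGTAGCctgggtcgactc
Dip2b, chr15:100215414-100215443, plus strand: tggcttacaacATGTAGCcagcactggagg
Sash1, chr10:8725484-8725513, minus strand: gccctgaggctATGTAGCcaggccggcgtg
Cdk1, chr10:69338485-69338514, minus strand: agattaagaagATGTAGCcctctggatgga
Knstrn, chr2:118834115-118834144, plus strand: agctcttagaaATGTAGCtcaaggcaggtg
The first 4 had a peak in all 5 libraries and the other 2 in 4. The remaining 6 were Mcm3ap, Ptp4a3, Abhd3, Gadl1, Trnau1ap and Usp2, with peaks in 1 to 3 libraries.

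Scamp1, a carrier protein of secretory membranes, had 70.2, 38.7 and 84.2 in control-IP 1, 2 and 4 and 81.2 and 115 in miR-222-IP 1 and 2, with a mean log2 ratio near 0 after scaling (−0.0036). Klf2, a transcription factor, had 23.6, 132 and 45.2 against 46.8 and 105, where control-IP 2 was the highest of the 5. Dip2b had 47.1, 74.8 and 67.4 against 70.9 and 61.3, and Sash1 had 20.3, 35.8 and 25.6 against 38.5 and 26.4. Cdk1, the kinase that drives mitosis, had no peak in control-IP 1, 48.3 and 38.7 in control-IP 2 and 4, and 27.5 and 61.3 in the miR-222-IPs. Only 4 of the 12 intervals had a peak in all 5 libraries, too few to set beside a share of all intervals, and none of these 4 was called higher or lower after scaling, although the deposited values of Sash1 were higher in both experiments. Of the 12, 1, in Abhd3, had peaks in both miR-222-IPs and in none of control-IP 1, 2 and 4, with 27.6 and 22.6.

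Other sites lay within 30 bases of the stop codon without touching it, and 3 of them are shown for their nearness to it.
Cul3, coding, 1 base before the stop codon, chr1:80267148-80267177, minus strand: agtatacacatATGTAGCataaaatgcatt
Usp8, coding, 4 bases before, chr2:126758582-126758611, plus strand: acgcataactgATGTAGCcacatagagagg
Ssr3, 3'UTR, 3 bases after, chr3:65381946-65381975, minus strand: ccaaatagaccATGTAGCttggccctctgc
Usp8, a deubiquitinase of endosomes, had 35.9, 22.6 and 64.3 in control-IP 1, 2 and 4 and 70.9 and 118 in the miR-222-IPs, and was higher in both experiments, with a mean log2 ratio of 0.57 after scaling. Ssr3, a subunit of the translocon-associated complex, had 105, 145 and 78.3 against 91.6 and 90.5, and was lower in both after scaling, with −0.58, although its deposited value in miR-222-IP 2 was the higher in experiment 2. Cul3, a scaffold of ubiquitin ligases, had 24.3, no peak and 29.4 in the control-IPs and 50.8 and 77.6 in the miR-222-IPs. The others were Magi1 in coding sequence and Gja5, Tmem35b, Las1l, Efcab14, Mki67 and Paip2 in the 3'UTR.

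The 2 measures of miR-222-IP against control-IP differed for stop codon intervals with a 7-mer. Of the 132 with 5 peaks, 13 (9.85%) were higher in both experiments and 25 (18.9%) lower, against backgrounds of 17.4% and 18.4%, and their median log2 ratio was −0.08 in experiment 1 and −0.07 in experiment 2. Of all stop codon intervals with 5 peaks, 17.8% were higher and 16.5% lower. The intervals with a 7-mer were counted under the median of ratios alone. Since the split of all stop codon intervals changed with the scaling, no direction is given for them. Where the 7-mer was in the 3'UTR, 12 of 103 were higher and 20 lower, and where it was coding, 1 of 15 in each direction. A peak in both miR-222-IPs and in none of control-IP 1, 2 and 4 was found for 19 of the 305 (6.23%), above the 4.06% of all stop codon intervals and near the 6.37% of all merged intervals. These shares were not tested against each other. The strongest intervals with a 7-mer were in Ctsz, Dazap2, Cnbp, Rnf13, Arf4, Adipor1, Atp6v0d1, Ywhaz, Snx18, Ywhab, Ybx1 and Mbp. Ctsz, the lysosomal protease cathepsin Z, had 169, 226 and 199 in control-IP 1, 2 and 4 and 194 and 179 in the miR-222-IPs. After scaling, 7 of these 12 were lower in both experiments and none higher, beside 32.7% lower and 8.53% higher of the strongest tercile, in which 6.09% were lower without scaling. The deposited value of Ctsz in miR-222-IP 1 lay between those of its control-IPs. Mbp, the myelin basic protein, had 109, 134 and 116 against 162 and 172.

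Of the genes on which the study turned, 11 had a stop codon interval. Rbm24, an RNA-binding regulator of muscle splicing, had no peak in control-IP 1, 2 and 4, 20.5 in miR-222-IP 1, just over the limit of the lists, and 90.5 in miR-222-IP 2. Control-IP 3, the library of wide peaks that was left out of the merge, had a peak over its exons at 132, above both miR-222-IPs. Its interval (chr13:46429313-46431027) held 2 coding bp and 1710 bp of 3'UTR, so that it met the rule narrowly, and it held a pair of 7-mers, 405 and 1219 bases after the stop codon:
Rbm24, chr13:46429712-46429741, plus strand: gagtgagcaatATGTAGCttgaattacgcg
Rbm24, chr13:46430526-46430555, plus strand: agtaggtctagATGTAGCatattaaatatt
Chrng, the gamma subunit of the embryonic acetylcholine receptor, had a peak in miR-222-IP 2 alone of the 5 libraries (55.7) and another at 190 in control-IP 3, with a 7-mer 795 bases after the stop codon. Ahnak, a large scaffold protein, had a peak in miR-222-IP 2 (69.7) and in none of the other 5 libraries of the series, and its interval of 1184 coding bp and 79 bp of 3'UTR held no 7-mer. The miR-222 site that the paper gives for Ahnak is in the coding region and lay outside this interval. Myo10, an unconventional myosin of filopodia, had 22.3 in control-IP 2, 22.2 in miR-222-IP 1 and 34.5 in miR-222-IP 2, a peak over its exons at 134 in control-IP 3, and a 7-mer 852 bases after the stop codon.

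Cdkn1c, the cell cycle inhibitor p57, had 32.9, 27.7 and 22.7 in control-IP 1, 2 and 4, 27.1 in miR-222-IP 1 and 184 in miR-222-IP 2. It was therefore not above its controls in experiment 1 and far above in experiment 2, and its site lies 94 bases after the stop codon:
Cdkn1c, chr7:143458914-143458943, minus strand: acctttcgttcATGTAGCaggaaccggaga
Coro6, an actin-binding coronin, had 49.8, 44.0 and 25.9 in the control-IPs and 43.6 and 164 in the miR-222-IPs, and Sntb1, a syntrophin, and Myog had a peak in miR-222-IP 2 alone of the 5 libraries (82.8 and 75.7). In control-IP 3 the exons of Coro6, Sntb1 and Myog had 129, 151 and 139. These genes and Myod1 share the high value in miR-222-IP 2, the library in which the myocyte markers summed to 1361, and the part of that library's makeup in it was not tested. Fxr1, an RNA-binding protein spliced differently in muscle, was the 1 study gene higher in both experiments after scaling, with 35.4 and 34.8 against 77.8 and 56.5 against 114, a mean log2 ratio of 0.60 (exact permutation test within experiments, p = 0.167, the smallest possible) and no 7-mer. Naca, a nascent chain chaperone with a muscle isoform, had 30.0, 24.9 and 31.3 against 50.5 and 44.2, and 135 in control-IP 3. On the deposited values Naca and Myod1 were also higher in both experiments.

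The study's other genes were outside the rule. In Tceal9 the 7-mer lies over the TAG stop codon, but the interval also overlapped 30 bp of 5'UTR and so was not counted:
Tceal9, chrX:136246664-136246693, plus strand: acccctatttaATGTAGCttggcttgcttt
Its values were no peak in control-IP 1 and 2, 47.9 in control-IP 4, 47.0 in miR-222-IP 1 and 110 in miR-222-IP 2. Cdkn1b, the cell cycle inhibitor p27, had its interval over a 5'UTR, Gapdh had one over 3'UTR only, and D1Pas1 had no exonic interval.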

How the data were processed

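Each of 6 deposited peak lists held 1 library, with chromosome, start, end, peak name and the −log10 p of each peak. Per the labels and the methods of the study, the authors aligned paired reads to mm10 with SOAPSplice, converted them with bedtools, called peaks per library with macs2 at default parameters (version not given in the sources used here), and kept those with −log10 p over 20. The values are not normalized between libraries, and depth is unknown. The library kit was not stranded, so reads of a gene and of its antisense partner cannot be told apart. The study's methods give a higher duplex concentration than the labels, which are followed here.

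Peaks of 5 libraries were merged (control-IP 3 was left out) and classified against GENCODE M21, on the build of the files, with Python 3.11.15, pandas 2.3.3 and pysam 0.24.0. The chosen transcript was that with the largest exonic overlap. An interval's value in a library was the highest −log10 p of its peaks there, scaled by the median of ratios for log2 ratios. Groups came from the condition labels and blocks from the experiment labels. The test planned for counts was not run, since the files hold none. Exact permutation tests over libraries were two-sided, and the scripts were tested on simulated data. Mature miRNA sequences came from RefSeq (GRCm38.p6) and sites from the GRCm38.p6 genome. A 7-mer was sought on the strand of the transcript. Named were the genes the study turned on, the 10 highest means, up to 10 intervals with a peak in both miR-222-IPs only and up to 5 with one in control-IPs only (there were none), the 3 largest and 3 smallest ratios, 12 with the 7-mer, all 7-mers within 30 bases of the stop codon, and up to 4 per list. Members and lists were chosen with earlier results of these data known. The microglial, myelin and muscle gene lists, and the genes from them that are plotted, were chosen after values were seen. Some items that these rules name are not reported here.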

Additional observations from a re-analysis of the deposited data

Results flagged for a closer look

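Control-IP 3 lay far from the other 3 control-IPs in the median width of its own stop codon peaks (21736 bp). That library was left out of the merge because of its wide peaks, so this width describes the ground for leaving it out and is not a separate result. In the following named intervals the 2 experiments moved in opposite directions after scaling, in that the scaled value of miR-222-IP lay above every control-IP of one experiment and below every control-IP of the other, and the difference was not tested. The log2 ratio in experiment 1 was −0.25 for Actc1, −0.74 for Atp6v0d1, −0.55 for Cdkn1c, −0.49 for Coro6, −0.21 for Cox8a, −0.26 for Eef1b2, −0.80 for Eef1d and −1.10 for Pecam1, each with a higher value in experiment 2. It was 0.64 for Hnrnpa2b1, 0.48 for Naca and 0.22 for Selenok, each with a lower value in experiment 2. On the deposited values Eef1b2, Naca and Selenok were higher in both experiments, and in experiment 1 Actc1, Atp6v0d1, Cox8a and Pecam1 lay between their control-IPs. Among all 2216 stop codon intervals with 5 peaks, 371 were lower in experiment 1 and higher in experiment 2, and 145 the reverse. The same counts were not made over all intervals, so whether this split is particular to stop codon intervals is not known.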

How the results depend on the processing

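The number of stop codon intervals was 6629, and it fell to 3925 with −log10 p over 50 and to 4393 when control-IP 3 was merged in, while leaving out 1 library gave 4986 (without miR-222-IP 2) to 6621. The share of own peaks over the stop codon reversed, from −1.56 to 3.92 percentage points, with equal numbers of peaks per library. Detection and strength against the other classes kept their direction under every alternative run. The counts of higher and lower intervals, 395 and 365, became 964 and 59 without scaling, 50 and 889 with scaling to the total, 854 and 1719 when a missing library was given its lowest listed value, and 16 and 12 with all 6 libraries. With missing libraries filled in this way the shares were 12.9% and 25.9%, against 10.1% and 39.2% of all intervals. With all 6 libraries they were 13.2% and 9.92%, against 7.43% and 14.1%. Leaving out 1 library gave 515 to 1367 higher and 603 to 848 lower, the extremes coming without miR-222-IP 2 and miR-222-IP 1, and without control-IP 2 and miR-222-IP 1. Without miR-222-IP 1, only miR-222-IP 2 was set against control-IP 4, so that every interval fell one way or the other. Of these, 61.7% were higher against 50.5% of all intervals, and 38.3% lower against 49.5%. Without miR-222-IP 2, 24.2% were higher and 33.4% lower, against 28.9% and 30.3% of all intervals. Without control-IP 1 the counts were 743 and 659, without control-IP 2 834 and 603, and without control-IP 4 559 and 757, since fewer libraries then had to be passed. The shares without control-IP 1 were 25% and 22.1%, against 24.9% and 24.8% of all intervals. Without control-IP 2 they were 34.6% and 25%, against 28.6% and 30.1%. Without control-IP 4 they were 24.5% and 33.2%, against 28.8% and 30.5%. With no replicate block, that is with each miR-222-IP set against all 3 control-IPs and not those of its own experiment, 249 were higher and 251 lower, and the share of own peaks differed by −1.57 points. The 249 and 251 were 11.2% and 11.3%, against 10.9% and 13.2% of all intervals. Intervals with peaks in both miR-222-IPs and none of control-IP 1, 2 and 4 numbered 269, 51 with equal numbers of peaks and 165 with all 6 libraries. The 165 were 3.76%, against 5.44% of all intervals. When 1 library was left out they numbered 258 to 1499. The 258 came without miR-222-IP 2 and the 1499 without miR-222-IP 1, where a peak was needed in the remaining miR-222-IP alone. They were 5.17% and 22.8%, against 10.7% and 38% of all intervals. Without control-IP 2 there were 576 (9.06%, against 10.4% of all intervals), and without control-IP 4 there were 584 (8.83%, against 13.2%). The 6-mer (bases 2 to 7) was in 1286 intervals against 305 for the 7-mer. Other causes were not tested. The tercile and list counts under other scalings were added after the data were seen. With 5 libraries no exact permutation test over libraries could go below p = 0.0625, or 0.167 within experiments, and the absence of read counts limits all strengths to the peak caller's scale.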
